A study of Arabidopsis thaliana with 6 samples.

Results

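BHLH101, PYE, AT1G47400 and AT5G05250 are 4 genes of the iron deficiency response of Arabidopsis thaliana, out of 22746 probe sets measured. They were chosen by their intensities on the 6 arrays, which differed widely between arrays of the same genotype. BHLH101 (AT5G04150) was read by probe set 245692_at, PYE (AT3G47640) by 252427_at, AT1G47400 by 261684_at and AT5G05250 by 250828_at. All 4 probe sets carry 1 named gene and all 4 were bright enough to be tested. AT1G47400 and AT5G05250 have no symbol in the gene tables used here and are given by their locus IDs.

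Whole 15-day-old seedlings of the Col-0 ecotype were profiled on Affymetrix arrays, 3 from the gapcp1gapcp2 mutant and 3 from wild type. The mutant carries mutations in both GAPCP1 and GAPCP2, which code for the glyceraldehyde-3-phosphate dehydrogenases of plastid glycolysis. Seedlings of both genotypes had received 0.75 µM abscisic acid (ABA), a stress hormone, for 8 days, so no array shows plants without ABA. They grew vertically on MS medium, diluted to 1/5, with 16 h of light and 8 h of dark at 22 °C, and the labels name no difference in iron supply. Each array stands for one of 3 sets of plants of its genotype, the sets of both genotypes having grown at the same time.

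Iron is scarce in soluble form in most soils, and Arabidopsis roots answer a shortage by reducing ferric iron at the root surface and importing it. A cascade of basic helix-loop-helix (bHLH) transcription factors runs this response. The upstream factors bHLH34, bHLH104, bHLH115, ILR3 and bHLH121 raise transcription of the subgroup that holds BHLH101 and of PYE. BHLH101 and its relatives work together with FIT to turn on the uptake genes, while PYE, named POPEYE, restrains genes of iron transport and storage. Transcripts of BHLH101 and PYE are known to rise when iron is short. Iron supply was not varied here, and the uptake genes IRT1 and FRO2, the regulator FIT and the ferritin genes were not analysed here. The label of the 4 genes therefore rests on prior knowledge and was not checked against those markers.

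BHLH101 differed several-fold within each genotype. Its probe-set intensity, a linear brightness, was 723 in mutant 1, 116 in mutant 2 and 315 in mutant 3, against 120 in wild type 1, 778 in wild type 2 and 400 in wild type 3. High values came from mutant 1 and wild type 2, low values from mutant 2 and wild type 1, and the genotypes overlapped. The highest intensity was 6.23 times the lowest among the mutant arrays and 6.49 times among the wild type arrays. The mean was 385 ± 310 in the mutant and 433 ± 331 in wild type (SD, n = 3 each).

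PYE followed the same order at the extremes over a narrower range. It had 235 in mutant 1, 83.1 in mutant 2 and 159 in mutant 3, against 90.3 in wild type 1, 243 in wild type 2 and 139 in wild type 3. The third array of each genotype lay between that genotype's other two. The highest intensity was 2.82 times the lowest in the mutant and 2.69 times in wild type. The mean was 159 ± 75.8 in the mutant and 157 ± 77.9 in wild type (SD, n = 3 each).

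AT1G47400 had the widest range of the 4 genes. Its intensity was 1386 in mutant 1, 161 in mutant 2 and 796 in mutant 3, against 217 in wild type 1, 1428 in wild type 2 and 697 in wild type 3. Again mutant 1 and wild type 2 stood highest and mutant 2 and wild type 1 lowest. The highest array was 8.62 times the lowest in the mutant and 6.59 times in wild type. The mean was 781 ± 613 in the mutant and 780 ± 610 in wild type (SD, n = 3 each). AT1G47395 is the neighbouring entry in the gene table and was not analysed here, and whether the AT1G47400 probes also read it could not be checked without probe sequences.

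AT5G05250 showed the pattern with the order inside each extreme pair exchanged. It had 567 in mutant 1, 121 in mutant 2 and 388 in mutant 3, against 108 in wild type 1, 545 in wild type 2 and 315 in wild type 3. Mutant 1 was the highest array and wild type 1 the lowest, whereas wild type 2 was highest and mutant 2 lowest for the other 3 genes. The highest array was 4.70 times the lowest in the mutant and 5.03 times in wild type. The mean was 359 ± 225 in the mutant and 323 ± 218 in wild type (SD, n = 3 each).

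**Figure D1:**
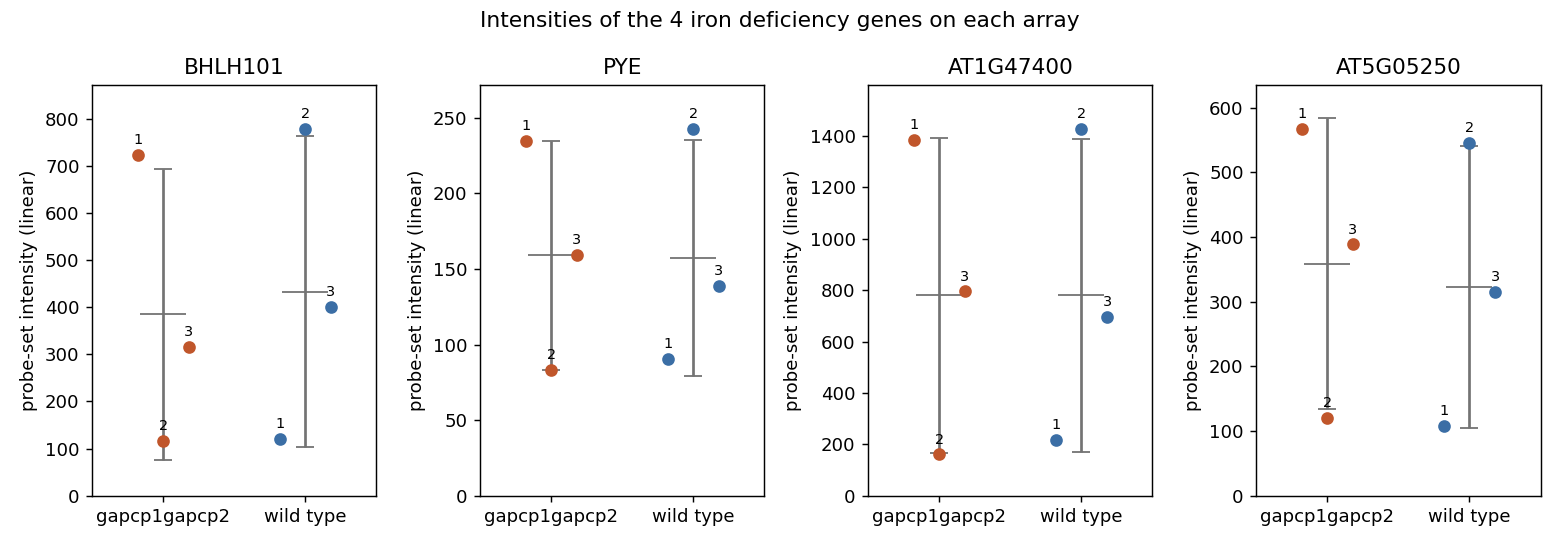
Probe-set intensity (linear axis from 0) of the 4 genes on each array, with gapcp1gapcp2 left of wild type. Points are arrays with their replicate number, and the grey bar and whiskers give the mean and SD of 3 arrays. In every panel mutant 1 and wild type 2 are the highest of their genotype and mutant 2 and wild type 1 the lowest.

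The levels of the 4 genes by array are what chose them, so the shared order is a description and was not tested. Mutant 1 and wild type 2 were the 2 highest arrays for 4 of 4 genes, and for 16.2% of all 15922 probe sets tested. Mutant 2 and wild type 1 were the 2 lowest for 4 of 4 genes, and for 10.9% of all probe sets tested. Both held at once for 5.67% of probe sets tested. The arrays with replicate number 3 lay between these extremes for all 4 genes. On a log2 scale running from the gene's lowest array (0%) to its highest (100%), BHLH101 stood at 51.2% in mutant 3 and 63.9% in wild type 3. PYE stood at 59.5% in mutant 3 and 46.4% in wild type 3. AT1G47400 stood at 72.6% in mutant 3 and 66.4% in wild type 3, and AT5G05250 at 76.3% in mutant 3 and 63.4% in wild type 3. Mutant 3 was thus above wild type 3 for 3 of the genes and below it for BHLH101. Each array gives a single value per gene, so the order of arrays within a pair has no error of its own.

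The range over the 6 arrays was wide beside that of other probe sets. On the scale log2(intensity + 16) the highest minus the lowest array came to 3.03 for AT1G47400, 2.59 for BHLH101, 2.23 for AT5G05250 and 1.38 for PYE, where the median of all tested probe sets was 0.43. Ranked by this range among the 15922 tested probe sets, AT1G47400 came at position 5, BHLH101 at 19, AT5G05250 at 38 and PYE at 308. A range at least as wide as that of PYE was found in 1.93% of tested probe sets. The SD within genotypes on the log2 scale was 1.44 for AT1G47400, 1.27 for BHLH101, 1.10 for AT5G05250 and 0.66 for PYE, against a median of 0.16 over all tested probe sets.

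**Figure D2:**
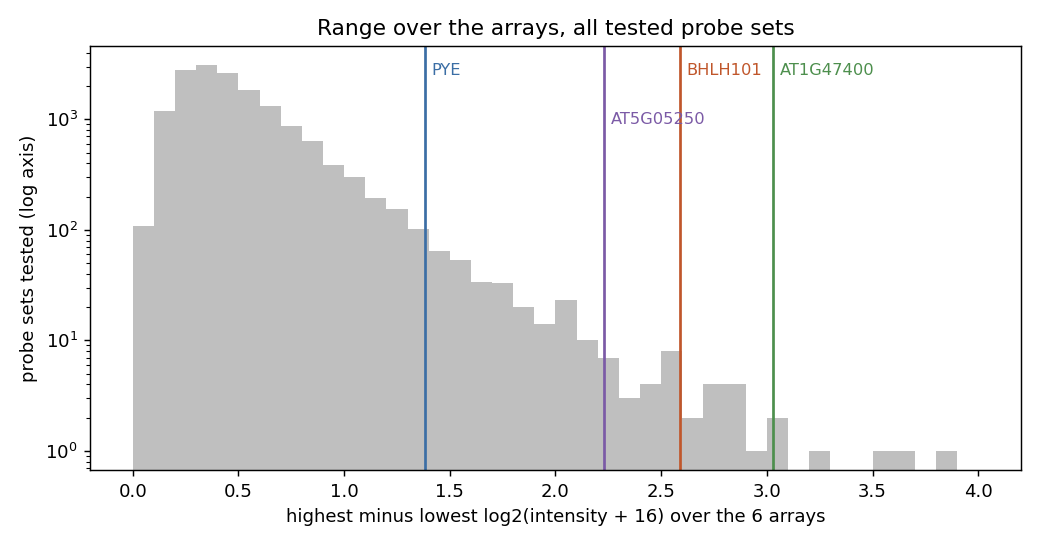
Number of tested probe sets (log axis) by their range over the 6 arrays, the highest minus the lowest log2(intensity + 16). Vertical lines mark the 4 genes. PYE lies at 1.38 and the other 3 genes at 2.23 or more, beyond the bulk of the probe sets, whose median is 0.43. The 4 genes were chosen for their spread between arrays.

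The comparison the labels set up is mutant against wild type, and none of the 4 genes passed it. With limma over all probe sets and Benjamini-Hochberg adjustment, 0 of 4 were called higher or lower at an adjusted p of 0.05, as were 0% of the 15922 probe sets in either direction. At an unadjusted p under 0.05 there were 0 of the 4 genes and 1.7% of all probe sets. The mutant arrays did not all lie on one side of the wild type arrays for any of the 4 genes, while they did for 6.29% of tested probe sets (3.16% with all mutant arrays higher and 3.13% with all lower). The 4 genes were chosen by levels that put an array of each genotype at either extreme. Their overlap was therefore set by the choice, which also favours a genotype difference near 0. Genotype held 0.58% of the variance of BHLH101 between arrays, 0.012% of PYE, 0.13% of AT1G47400 and 0.80% of AT5G05250, where the median over all tested probe sets was 7.75%. A low share for genotype was likewise favoured by the choice of the 4 genes, so this contrast is a description and was not tested.

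The differences were small and their intervals wide. The log2 difference, mutant minus wild type, was -0.16 ± 0.71 for BHLH101 (SE, adjusted p = 1.00), a fold of 0.896 with a 95% interval of 0.295 to 2.72. PYE had 0.012 ± 0.38, with an interval of the fold from 0.56 to 1.83. AT1G47400 had -0.083 ± 0.80, with an interval from 0.267 to 3.34, and AT5G05250 had 0.16 ± 0.61, with an interval from 0.426 to 2.93. The adjusted limma p of these 3 genes was 1.00 as well. The spread between arrays thus leaves room for a change of over 2-fold in either direction for BHLH101, AT1G47400 and AT5G05250. The sign also hung on single arrays. BHLH101 came to 0.48 without mutant 2 and 0.42 without wild type 2. AT1G47400 came to 0.78 without mutant 2, 0.53 without wild type 2 and 0.016 without wild type 3. AT5G05250 came to -0.28 without mutant 1, -0.013 without mutant 3 and -0.44 without wild type 1. PYE came to -0.30 without mutant 1, -0.039 without mutant 3, -0.29 without wild type 1 and -0.021 without wild type 3. Leaving out any of the 6 arrays brought no call.

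**Figure D3:**
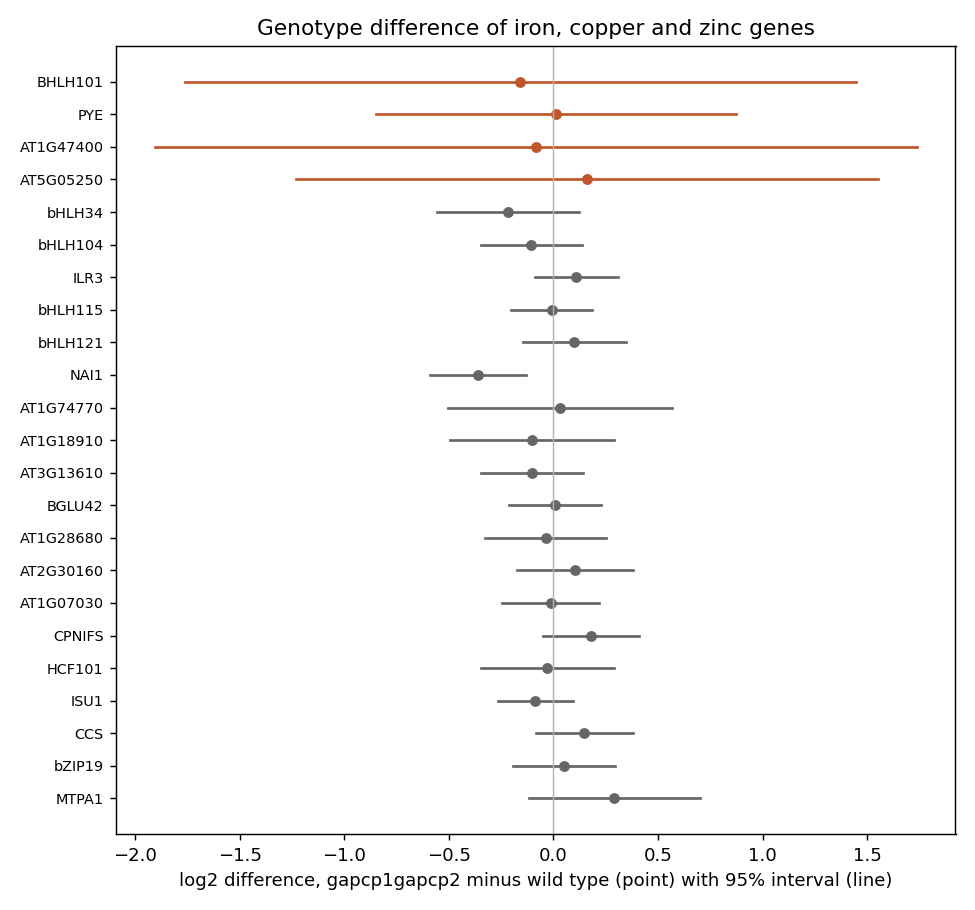
Log2 difference, gapcp1gapcp2 minus wild type (points), with its 95% interval (lines), for the 4 genes (orange) and the 19 other tested iron, copper and zinc genes (grey). The intervals of the 4 genes, which were chosen for their spread between arrays, all span 0 and are wider than those of the grey genes. Of the grey genes NAI1 alone has an interval that leaves out 0.

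The upstream bHLH factors of the cascade varied little over the arrays, with the highest array between 1.03 and 1.54 times the lowest. bHLH34 had 77.1, 61.5 and 72.5 in mutant 1, 2 and 3, against 76.8, 94.5 and 81.8 in wild type 1, 2 and 3. bHLH104 had 442, 394 and 436 in the mutant, against 490, 474 and 411 in wild type, in the same array order. The highest array was 1.54 times the lowest for bHLH34 and 1.24 times for bHLH104. ILR3 had 735, 778 and 742 in the mutant, against 685, 674 and 727 in wild type. bHLH115 had 633, 620 and 634 in the mutant, against 633, 641 and 626 in wild type, and its highest array was 1.03 times its lowest. bHLH121 had 415, 385 and 373 in the mutant, against 324, 392 and 379 in wild type. Of these 5 genes, bHLH121 alone had mutant 1 and wild type 2 as its 2 highest arrays, and none had mutant 2 and wild type 1 as its 2 lowest. The difference in range between these factors and BHLH101 or PYE was not tested, since BHLH101 and PYE were chosen for their range.

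None of the 5 upstream factors passed the genotype test. Their log2 differences were -0.22 ± 0.15 (SE) for bHLH34, -0.11 ± 0.11 for bHLH104, 0.11 ± 0.087 for ILR3, -0.0092 ± 0.084 for bHLH115 and 0.099 ± 0.11 for bHLH121, all with an adjusted limma p of 1.00. NAI1, a bHLH gene known for ER body formation, was also among the regulators listed here. It had 154, 166 and 158 in mutant 1, 2 and 3, against 220, 208 and 200 in wild type 1, 2 and 3. All mutant arrays lay below all wild type arrays for NAI1. Its log2 difference was -0.36 ± 0.10 (SE), with a limma p of 0.0061 unadjusted and 1.00 adjusted. Of the 8 regulators tested, BHLH101 and PYE included, 0 passed in either direction and the median log2 difference was -0.058, against -0.0032 over all tested probe sets.

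The list that holds AT1G47400 and AT5G05250 had 2 further tested genes, AT1G74770 and AT1G18910, for which the tables give no symbol. AT1G74770 had 179, 97.3 and 143 in mutant 1, 2 and 3, against 122, 183 and 104 in wild type 1, 2 and 3, on its brighter probe set 262218_at. Its 2 highest arrays were mutant 1 and wild type 2, its 2 lowest mutant 2 and wild type 3, and the highest was 1.88 times the lowest. Its dimmer probe set 262217_at had 89.9, 73.1 and 60.2 in the mutant, against 34.4, 79.9 and 68.9 in wild type, so the probe sets differ in which arrays are low. The log2 difference was 0.031 ± 0.24 (SE) on 262218_at and 0.27 ± 0.26 on 262217_at. AT1G18910 had 79.7, 58.1 and 64.3 in the mutant, against 60.3, 77.2 and 82.9 in wild type, a log2 difference of -0.10 ± 0.17.

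The 3 tested genes of root iron uptake had their highest array between 1.06 and 1.33 times their lowest. Of 15 listed genes 5 had a named probe set, 3 were tested, 0 passed, and the median log2 difference was -0.037. AT3G13610, which the RefSeq table also lists as F6'H1, an enzyme of coumarin synthesis, had 378, 396 and 326 in mutant 1, 2 and 3, against 379, 409 and 393 in wild type 1, 2 and 3. BGLU42, a beta-glucosidase gene of the root response to iron shortage, had 206, 209 and 196 in the mutant, against 202, 203 and 203 in wild type. AT1G28680 had 228, 288 and 265 in the mutant, against 303, 245 and 254 in wild type. Its highest arrays were wild type 1 and mutant 2, which were the lowest for the 4 iron deficiency genes, and its highest was 1.33 times its lowest.

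Tested genes of the remaining metal lists gave no call. AT2G30160 and AT1G07030 were the tested genes of the list of iron transport within the plant, with log2 differences of 0.10 ± 0.12 (SE) and -0.012 ± 0.10. HCF101, which carries iron-sulfur clusters to photosystem I, had 1493, 1061 and 1320 in mutant 1, 2 and 3, against 1145, 1457 and 1332 in wild type 1, 2 and 3. For HCF101 mutant 1 and wild type 2 were the 2 highest arrays and mutant 2 and wild type 1 the 2 lowest, at 1.41 times from lowest to highest. CPNIFS, the plastid cysteine desulfurase that supplies sulfur to these clusters, had a log2 difference of 0.18 ± 0.10, and ISU1, a mitochondrial cluster scaffold, had -0.087 ± 0.079. CCS, the copper chaperone of superoxide dismutase, had 0.15 ± 0.10. In the zinc list, the regulator bZIP19 had 0.050 ± 0.11 and the metal transporter MTPA1 0.29 ± 0.18. MTPA1 had 100.4, 131 and 115 in mutant 1, 2 and 3, against 88.4, 70.9 and 118 in wild type 1, 2 and 3, its highest array at 1.84 times its lowest. For each of these 8 genes limma gave an adjusted p of 1.00.

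Over the lists of iron, copper and zinc genes, 27 of 103 listed genes other than the 4 had a named probe set and 19 of them were tested. None of the 19 passed in either direction, 9 were fitted above 0 and 10 below, and their median log2 difference was -0.0092. The genotypes did not overlap for 5 of the 19, ILR3, CPNIFS and CCS higher and NAI1 and ISU1 lower in the mutant, beside 6.29% of all tested probe sets. Mutant 1 and wild type 2 were the 2 highest arrays for 4 of the 19 (21.1%), near the 16.2% of all tested probe sets. Mutant 2 and wild type 1 were the 2 lowest for 2 of the 19 (10.5%), near the 10.9% of all tested probe sets. The widest log2 range among the 19 was 0.81 and the median 0.34, below the 1.38 of PYE. The 4 genes were chosen for their spread, so this contrast was not tested. The other 8 genes with a probe set lay in the lowest 30% of intensities, with values from 0.47 to 53.9, and were not tested.

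**Figure D4:**
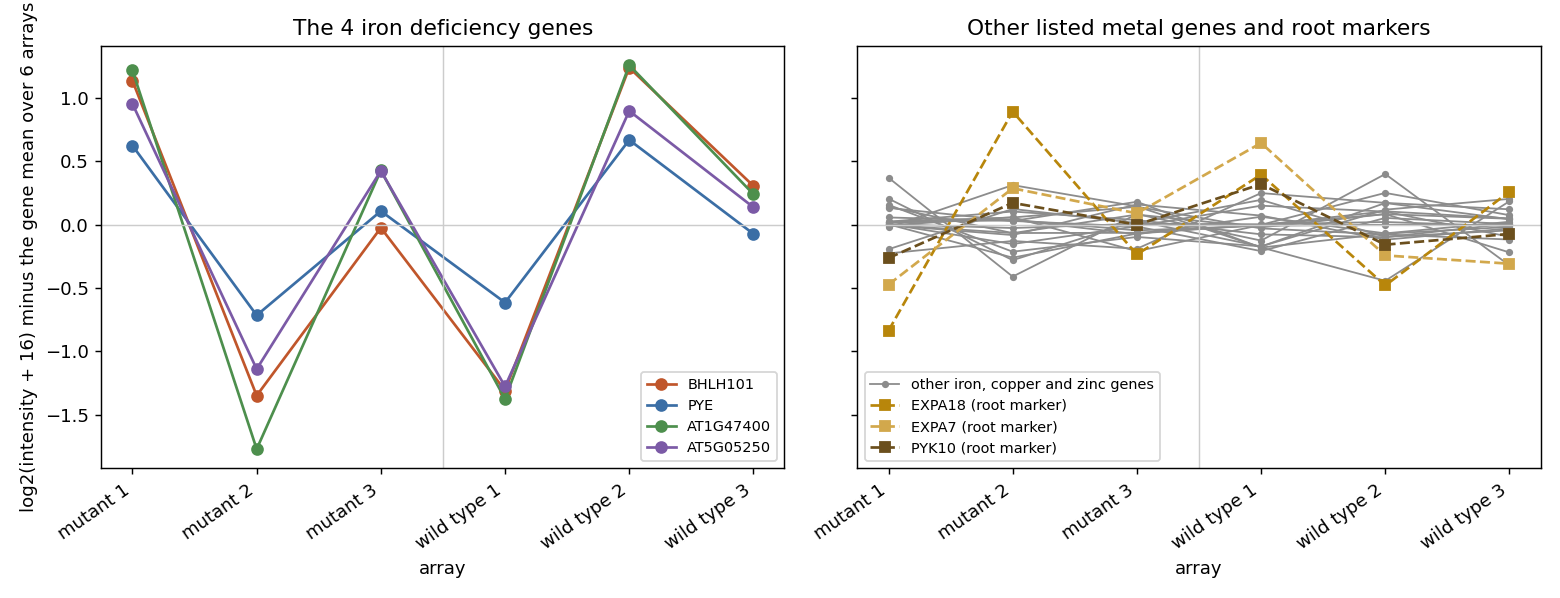
Values of log2(intensity + 16) minus each gene's mean over the 6 arrays, with mutant arrays left of wild type arrays. Lines only join the values of a gene. The 4 iron deficiency genes (left) run between -1.77 and 1.26 and peak in mutant 1 and wild type 2, the 19 other metal genes (right, grey) have ranges of at most 0.81, and the root markers EXPA18, EXPA7 and PYK10 (right, dashed) are lowest in mutant 1.

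The 3 root markers with a named probe set had mutant 2 and wild type 1 as their 2 highest arrays. EXPA18, an expansin gene of root hairs, had 66.1, 256 and 109 in mutant 1, 2 and 3, against 177, 89.1 and 160 in wild type 1, 2 and 3. EXPA7, another root hair expansin gene, had 37.9, 75.3 and 63.6 in the mutant, against 101, 47.3 and 44.5 in wild type. PYK10, an abundant root beta-glucosidase gene, had 4073, 5514 and 4890 in the mutant, against 6109, 4383 and 4649 in wild type. Mutant 1 was the lowest and mutant 2 the highest mutant array for all 3 genes. In wild type, wild type 1 was the highest array for all 3. Wild type 2 was the lowest for EXPA18 and PYK10, and wild type 3 for EXPA7. EXPA18 and PYK10 thus had the reverse order of the iron deficiency genes at both extremes, and EXPA7 at the high extreme only. The full reverse order was found for 5.9% of all tested probe sets. It was found for 31.2% of those with a log2 range at least that of PYE. Among the 3 tested genes of root iron uptake, AT1G28680 alone had it. Whether root markers hold it more often than other genes was not tested. The summed intensity of the root epidermis and hair list, of which 2 of 7 genes had a named probe set, ranged from 104 to 332 in the mutant and from 136 to 278 in wild type. Of the list for inner root layers 1 of 6 genes had one, PYK10.

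Leaf markers varied less. The 3 of 7 mesophyll genes with a named probe set were LHCB4.1, RCA and SBPASE. They summed to between 22473 and 24377 in the mutant and between 22324 and 24241 in wild type. LHCB4.1 and RCA made up most of each sum. Of the 3 genes, SBPASE alone had mutant 1 and wild type 2 as its 2 highest arrays, as the 4 iron deficiency genes did. Its 2 lowest arrays were mutant 2 and wild type 3. FMA, the 1 of 3 guard cell markers with a named probe set, had 95.4, 99.0 and 99.1 in mutant 1, 2 and 3, against 86.4, 123 and 105 in wild type 1, 2 and 3. None of the 3 phloem markers had a named probe set, so they were not analysed here, and no marker with a probe set was at 0. None of the markers passed the genotype test. The part of root tissue in the levels of the 4 iron deficiency genes was not tested, and in whole seedlings a smaller share of a tissue and less RNA of a gene per cell cannot be told apart.

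The genes closest in pattern to the 4 were named by their likeness over the arrays. Likeness was the root mean square difference between the log2 values of 2 genes over the 6 arrays, each centred on its own mean, and the 3 closest genes to each of the 4 were taken from probe sets with 1 named gene. The measure describes 6 arrays in which the same seedlings gave all values, and it was not tested. BHLH101 and AT1G47400 differed by 0.26, where the values of BHLH101 alone spread around their mean by 1.04. BHLH101 and AT5G05250 differed by 0.27, and AT1G47400 and AT5G05250 by 0.32. PYE lay farther from these 3 genes, at 0.39 to 0.66, since its range was narrower.

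AT1G12030 was among the 3 closest genes to BHLH101 (0.26), AT1G47400 (0.36) and AT5G05250 (0.17). It had 135, 17.5 and 71.7 in mutant 1, 2 and 3, against 23.4, 128 and 62.8 in wild type 1, 2 and 3. Its low values lay near the 16 added before the log. The highest array was 7.72 times the lowest, and 4.51 times once 16 was added, so its likeness depends on that setting. THI2.2, a thionin gene, was close to AT5G05250 (0.20), with 378, 91.9 and 236 in the mutant, against 103, 393 and 210 in wild type. For PYE the closest were AT5G48490 (0.064), AT3G56290 (0.084) and the sugar transporter gene SWEET13 (0.087). AT5G48490 had 1949, 875 and 1425 in the mutant, against 887, 2085 and 1230 in wild type. AT3G56290 had 1228, 428 and 766 in the mutant, against 446, 1217 and 628 in wild type, and SWEET13 had 155, 42.4 and 105, against 53.7, 139 and 84.2. In all 5 of these genes mutant 1 and wild type 2 were high and mutant 2 and wild type 1 low, and the genotypes overlapped.

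**Figure D5:**
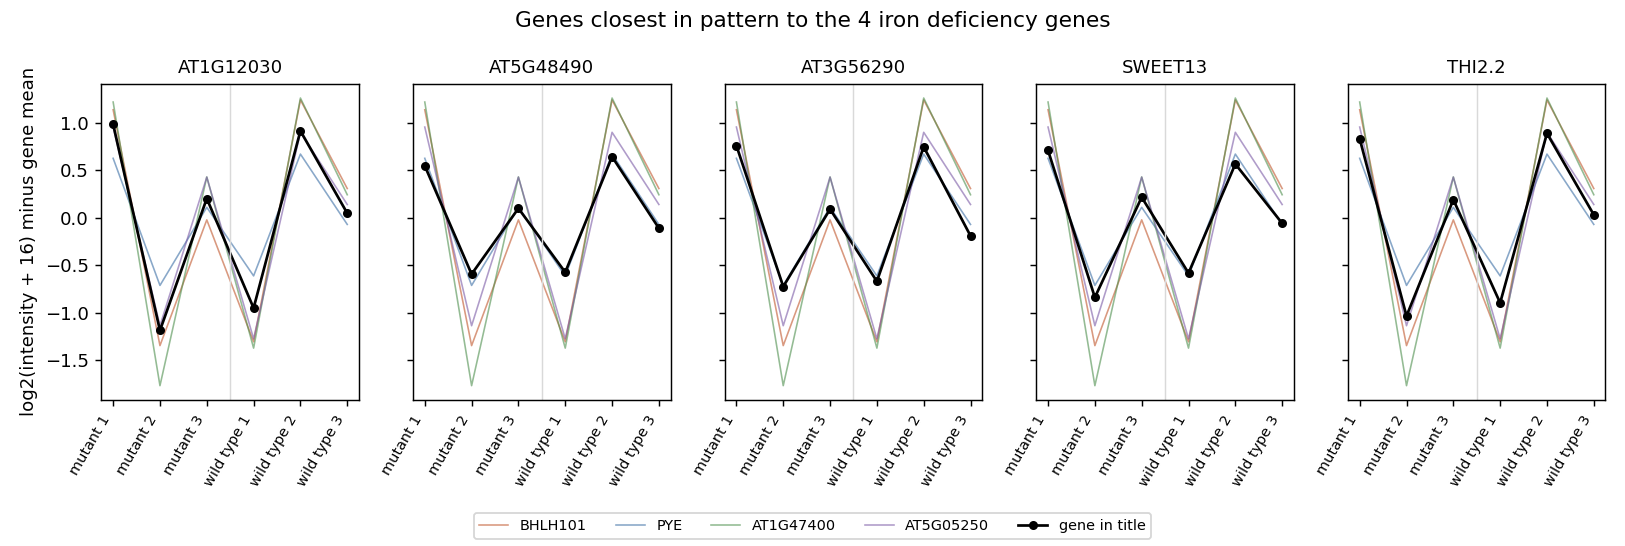
Values of log2(intensity + 16) minus each gene's mean, by array, for the 5 genes other than the 4 that were closest in pattern (black, named above each panel), with the 4 iron deficiency genes as thin lines. Lines only join the values of a gene. In each panel the black gene is high in mutant 1 and wild type 2 and low in mutant 2 and wild type 1, which follows from its choice by likeness.

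Depth of measurement on these arrays is given by brightness. Array medians ran from 105.8 to 113.0, and from 395 (wild type 1) to 785 (wild type 3) of the 22746 values of an array lay below 0. The lowest value of any of the 4 genes was 83.1, for PYE in mutant 2, and none was near 0. With 3 arrays a genotype, precision is limited by their number.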

How the data were processed

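The labels' protocols give total RNA of whole seedlings, labelled with biotin and hybridised to Affymetrix arrays. Groups and replicate numbers came from the sample titles. A free-text label that speaks of embryos disagrees with the source, tissue and protocol labels and was not used. The authors deposited a table of linear probe-set intensities, with a column for each array. GCOS is named in the submitters' processing notes, with no version, and how probes were summarised and scaled is not given in the sources used here. Over the 6 arrays 3919 values lay below 0, so something had been subtracted. Of 22746 probe sets, 13513 had 1 gene in the platform's table, 503 had several and 8730 were unnamed here. Gene IDs gave current names in RefSeq's gene table for TAIR10.1 (13436 matched). No coordinates or sequences are given, since the files name no genome build and hold no sequences. GAPCP1 and GAPCP2 were among the genes not analysed here, so the genotype labels were not checked.

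Values below 0 were raised to 0 and log2(value + 16) was taken, with no further normalization, which understates changes of dim genes. The lowest 30% of probe sets by mean were left out. Genotypes were compared with limma 3.58.1 in R 4.3.3 (lmFit, eBayes with trend, two-sided, Benjamini-Hochberg over all 15922 probe sets, threshold 0.05). The fit was also run on simulated data with noise drawn independently for each array, which does not cover deviations shared between arrays. The p-values set the difference between genotypes against the spread between arrays of the same genotype. A gene with several probe sets was read on the one with the highest mean. The 4 genes and the gene lists were chosen with earlier results of these data known. Named were all tested regulators and all tested genes of the list that holds AT1G47400, the 3 genes of widest range and the gene of smallest p in each other metal list, and the 3 genes closest in pattern to each of the 4. Markers and the second AT1G74770 probe set were named outside this rule. Figures were drawn with matplotlib 3.10.9.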

Additional observations from a re-analysis of the deposited data

How the results depend on the processing

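The 18 alternatives were other filters (none, or the lowest 50% left out), array scaling by quantiles, by the median or by the 75th percentile, a pseudocount of 1 or of 64, a generalized log2 without the floor at 0, robust eBayes, eBayes with no trend, array weights, the replicate block, and leaving out each array. Limma called 0 probe sets under each of them, with a smallest adjusted p of 0.999, and 0 to 0 with an array left out. At an unadjusted p under 0.05 the 271 probe sets became 619 without the filter, 115 with the lowest 50% left out and 136 with the replicate block. The labels do not tie replicate numbers to the sets of plants, so the numbers were not treated as pairs in the main fit. The block gave 0 calls, as did every other setting. Deviations from the genotype means of arrays with the same number correlated, over probe sets, at -0.59 for number 1, -0.49 for 2 and -0.13 for 3. Mutant 1 with wild type 2 gave 0.60, mutant 2 with wild type 1 gave 0.39 and with wild type 3 0.13, and mutant 3 with wild type 1 gave 0.23. The deviations sum to 0 within each genotype, so these correlations depend on one another. They come from the data and not from the design, and whether any of these arrays shared a set of plants was not tested.

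For the 4 genes the 2 highest and the 2 lowest arrays were the same under all 6 other scalings and pseudocounts, with log2 ranges of 2.23 to 2.73 for BHLH101, 1.06 to 1.53 for PYE, 2.73 to 3.14 for AT1G47400 and 1.87 to 2.38 for AT5G05250. Leaving out an array turned the sign of the log2 difference in 25 of 138 values, which came from 11 of 23 genes, and the other alternatives turned 4 of 273. With an array left out the log2 differences ran over BHLH101 (-0.85 to 0.48), PYE (-0.30 to 0.37), AT1G47400 (-0.79 to 0.78), AT5G05250 (-0.44 to 0.77), bHLH115 (-0.017 to 0.0015), AT1G74770 (-0.15 to 0.24), BGLU42 (-0.010 to 0.031), AT1G28680 (-0.11 to 0.052), AT1G07030 (-0.049 to 0.023), HCF101 (-0.14 to 0.10) and bZIP19 (-0.018 to 0.10). Array weights turned AT1G47400 (0.19), BGLU42 (-0.0057) and HCF101 (0.0078), and centring on the 75th percentile turned bHLH115 (0.0014). The cause was not tested, and no named gene passed under any alternative. Signal over background limits the 8 metal genes left out by the filter, whose intensities reached at most 53.9.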

Other observations

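The order of arrays seen in the 4 iron deficiency genes was shared by other probe sets, and its reverse was more frequent among those of wide range. Mutant 1 and wild type 2 were the 2 highest arrays and mutant 2 and wild type 1 the 2 lowest for 903 of 15922 tested probe sets (5.67%). The reverse order was found for 939 (5.9%). Among the 308 probe sets with a log2 range at least that of PYE, 46 (14.9%) had the order of the 4 genes, 18 of them with 1 named gene, and 96 (31.2%) had its reverse, 45 of them with 1 named gene. The 4 genes are themselves counted in the 903, the 308 and the 46, since the cut is the range of PYE and the order is theirs. These are counts of arrays' ranks over probe sets that share the same 6 RNA samples, and they were not tested.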
